A study of Drosophila melanogaster with 36 samples.

Results

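Heads of old adult flies were set against heads of flies that had already matured, at 45 d and 15 d of age. The comparison takes 6 of the 36 libraries of the series, chosen by their age and tissue labels, with 3 libraries per age. All are poly-A RNA from Drosophila melanogaster labelled WT, of the stock that the study calls 5905. No treatment is labelled, and the sex of the flies is not stated. The rest of the series holds heads at 3 and 30 d, muscles at the same 4 ages and whole flies of 3 genotypes in a study of the lysine acetyltransferase GCN5. How many heads went into a library, and whether replicates came from separate cultures, is not stated either, so p-values measure the spread between these libraries, which may be technical.

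A fly head holds the brain, the compound eyes, glia, fat body, muscle and cuticle, and RNA of all of them enters one library. Against microbes the fat body secretes short antimicrobial peptides under the Toll and Imd pathways. In these pathways peptidoglycan recognition proteins sense bacterial walls and factors of the NF-kappaB family, Relish for Imd and Dorsal and Dif for Toll, switch on the effector genes. In the eye, light activates rhodopsin, a G protein and a phospholipase C, which opens the channels TRP and TRPL, while arrestins end the response. Photoreceptors signal to the brain with histamine.

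Gene counts summed to 3782998, 4088775 and 3332624 in the 45 d libraries and to 3810310, 3440667 and 4361043 in the 15 d libraries. The summed level of 10 photoreceptor markers was 27839 to 49529 CPM at 45 d and 58278 to 61971 CPM at 15 d, against 98.4 to 136.6 CPM in muscle libraries, so the label of the tissue matches its markers. CPM are counts scaled to a common library size (TMM). 45 d replicate 3 stood apart from the other libraries of its age. Its rank correlations with them were 0.987 and 0.988, against 0.993 between 45 d replicates 1 and 2, and its clock genes, described below, were at another level. Pairs within the other ages had 0.991 to 0.992 at 15 d, 0.988 to 0.992 at 3 d and 0.989 to 0.992 at 30 d, so the correlations alone set it little apart. 45 d replicate 1 held a count for 12527 genes, the other 5 libraries for 11269 to 11862, and it carried 17.4 CPM of 4 testis markers where the other 5 had 1.73 to 2.71 CPM. Genes called with and without single libraries are given beside the results they touch.

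Of 8863 genes tested, 438 were higher at 45 d than at 15 d and 384 were lower, which is 4.94% and 4.33% of the genes, 9.27% in all (edgeR quasi-likelihood test, Benjamini-Hochberg adjusted p under 0.05). These shares are the background for the counts of each gene list below. The rises were the larger changes. At least 2-fold were 105 of the rises and 19 of the falls, and at least 4-fold 38 rises and 3 falls. The median log2 change was 0.58 among genes called higher, -0.41 among genes called lower and close to 0 over all genes tested. The 3 libraries of one age did not overlap with those of the other in 436 of the 438 and in 381 of the 384 genes. Of all 8863 genes tested 2447 did not overlap, and a call with 3 libraries per age leaves little room for overlap. The genes that fell were the more highly expressed, with a median of 108.4 CPM at 45 d and 145.4 CPM at 15 d, while those that rose had a median of 73.3 CPM at 45 d and 47.1 CPM at 15 d. Scaling by library size alone moved the split from 53.3% to 72.7% higher, with 601 rises and 226 falls. In bulk heads, fewer cells of a type and less RNA per cell cannot be told apart.

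**Figure D1:**
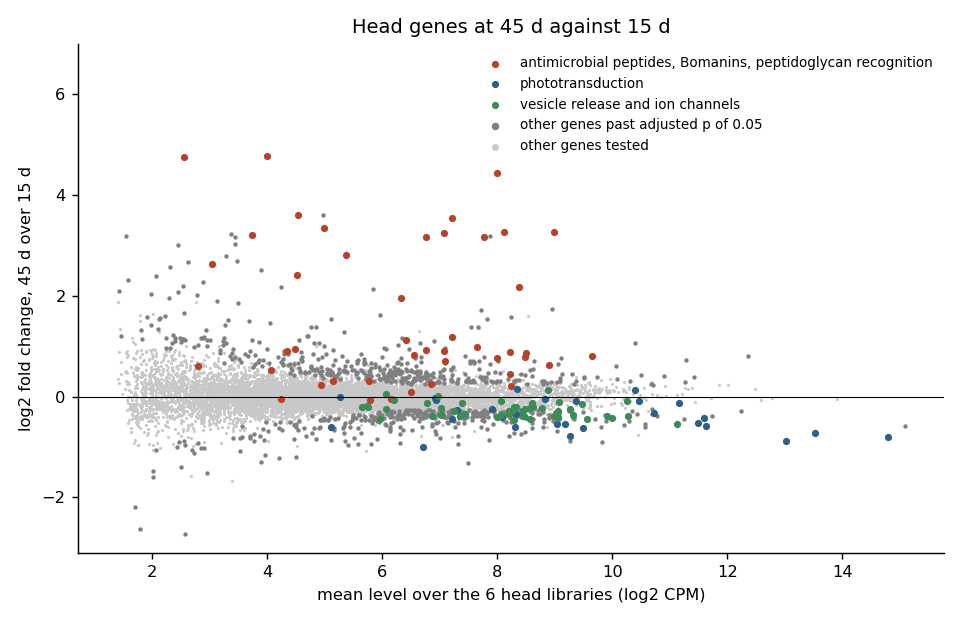
Log2 fold change of heads at 45 d over heads at 15 d (vertical axis) against the mean level over the 6 libraries in log2 CPM (horizontal axis), 1 point per gene tested (8863 genes). Immune genes (red) reach a log2 change of 4.77, while phototransduction genes (blue) and genes of vesicle release and ion channels (green) lie mostly below 0 within a log2 change of -1.0.

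The number of calls depended on single libraries. Without 45 d replicate 3 there were 592 rises and 552 falls. Without 15 d replicate 2 there were 217 and 162, without 15 d replicate 3 235 and 158, without 45 d replicate 2 258 and 180, without 45 d replicate 1 295 and 239, and without 15 d replicate 1 308 and 236. In each of these 6 fits 185 of the 438 rises and 118 of the 384 falls were called.

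In the lists for recognition, signalling and peptide effectors of the humoral immune response, the genes called were all higher at 45 d. The share called and the median change were smallest for signalling genes, and the lists were chosen with earlier results of these data known. At the level of recognition, 6 of 13 peptidoglycan recognition and related genes rose and none fell, with a median log2 change of 0.53 over the 13. PGRP-SC2, an amidase that breaks down peptidoglycan, had 38.9, 17.7 and 31.6 CPM at 45 d and 1.32, 0.289 and 1.39 CPM at 15 d (log2 change 4.77 ± 0.43 SE, adjusted p 6.9e-05). All 3 old libraries lay far above the young ones, where the gene had only a few counts. PGRP-SB1, another secreted amidase, had 454, 401 and 746 CPM at 45 d and 163, 102 and 88.9 CPM at 15 d (2.17 ± 0.24, adjusted p 0.00026). PGRP-SD, a secreted sensor, had 124, 95.8 and 156 CPM at 45 d and 42.6, 25.7 and 27.7 CPM at 15 d (1.95 ± 0.19, adjusted p 0.00011). The sensor of the Toll pathway PGRP-SA rose by a log2 change of 0.91, and PGRP-LB, an amidase that dampens Imd, by 0.95. The receptors of Imd were not called, at 90.9, 86.3 and 99.0 CPM for PGRP-LC at 45 d against 92.6, 77.7 and 85.5 CPM at 15 d, and at a log2 change of -0.06 for PGRP-LE.

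Among the signalling genes that connect recognition with transcription, 5 of 24 rose, none fell and the median log2 change was 0.16. Rel, which encodes Relish, had 209, 187 and 272 CPM at 45 d and 140, 138 and 140 CPM at 15 d (0.66 ± 0.12, adjusted p 0.0036). The 15 d libraries were alike and all 45 d libraries were above them. Also called were the Toll adaptor Myd88 (0.42), dl, which encodes Dorsal (0.31), its inhibitor cact (0.31) and the Imd inhibitor pirk (0.69). Only Rel among these 5 was called without any one library. The count fell to 1 without 15 d replicate 3 and to 2 without 15 d replicate 2 or 45 d replicate 2, and it was 3 without 15 d replicate 1. Core components such as imd (0.17), Dif (0.14), key (0.10) and Tl (-0.04) did not pass the test.

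Effectors showed some of the largest changes of the comparison. Of 22 antimicrobial peptide genes found, 15 had enough counts to be tested, 13 of them rose and none fell, and the median log2 change of the 15 was 3.22, against a median close to 0 over all genes. Dro, the proline-rich peptide drosocin, had 456, 178 and 810 CPM at 45 d and 41.6, 16.8 and 8.55 CPM at 15 d (4.43 ± 0.54, adjusted p 0.0004). DptA, the glycine-rich diptericin, had 254, 118 and 436 CPM at 45 d and 47.3, 11.0 and 10.2 CPM at 15 d (3.55 ± 0.51, adjusted p 0.0012). The antifungal peptide gene Drs, on chromosome arm 3L at 3369556 to 3369942, had 232, 110 and 383 CPM at 45 d and 20.0, 24.3 and 30.7 CPM at 15 d (3.25 ± 0.37, adjusted p 0.00029). The highest library of each of these 3 genes was 45 d replicate 3 and the lowest of the old ones 45 d replicate 2. All 3 are among the 12 named largest rises, for which no overlap between ages was a condition.

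The same order within the 45 d libraries held for the sum over all antimicrobial peptide genes, which came to 3300, 1795 and 5634 CPM at 45 d and 880, 453 and 505 CPM at 15 d. The other peptide genes that rose were the cecropins CecA2 (3.60), CecA1 (3.35) and CecC (2.64), the attacins AttC (3.26), AttB (3.17) and AttA (2.81), Mtk (3.27), Def (3.22), DptB (3.17) and Mtkl (2.40). Drsl5 and Drsl4, drosomycin relatives, were the 2 tested members not called, at log2 changes of 0.21 and 0.32. CecC was lost without 15 d replicate 2 or 3 and AttA without 15 d replicate 2, and the other 11 were called in all 6 fits that left out one library. With edgeR's robust dispersion 1 of the 13 passed, Def, and adjusted p ranged from 0.052 for Drs to 0.153 for AttC among 9 others, with the same fold changes.

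Bomanins, short peptides secreted under the control of Toll, and related Toll effectors rose in 14 of 16 cases with a median log2 change of 0.82, smaller than the changes of the antimicrobial peptides. BomBc3 had 199, 166 and 237 CPM at 45 d and 91.3, 84.1 and 88.9 CPM at 15 d (1.18 ± 0.11, adjusted p 0.0001). BomS1 had 260, 224 and 297 CPM at 45 d and 127, 115 and 152 CPM at 15 d (0.98 ± 0.12). In both, the lowest old library was above the highest young one. The antifungal Daisho peptides Dso1 (0.82) and Dso2 (0.91) rose as well, and BomS4 (0.32) and BomT1 (0.61) were not called. IBIN, a peptide induced by infection, had 10.5, 3.95 and 17.2 CPM at 45 d and 1.05, 0 and 0 CPM at 15 d.

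Serpins, inhibitors of the proteases that start Toll signalling and melanisation, rose in 7 of 15 cases with a median log2 change of 0.39. Spn88Eb had 86.2, 50.7 and 141 CPM at 45 d and 19.2, 23.4 and 19.4 CPM at 15 d (2.14 ± 0.30, adjusted p 0.00097, not called with robust dispersion). Spn27A, which restrains melanisation, rose by 0.46 ± 0.09, and nec, the inhibitor of Toll activation, was just outside the threshold (0.27 ± 0.08, adjusted p 0.054). The count of serpins ranged from 4, without 15 d replicate 2, to 8, without 45 d replicate 3. Among 18 thioester protein and hemocyte surface genes 3 rose and 2 fell, and 14 were above 0 with a median log2 change of 0.26. Tep2, a secreted thioester protein, rose by 0.54 ± 0.10 with any one library left out. NimB1 (0.83) and NimB2 (0.35), secreted relatives of phagocytosis receptors, were lost without 15 d replicate 2, 15 d replicate 3 or 45 d replicate 2. The list had 2 rises without 15 d replicate 2 and 1 without 15 d replicate 3 or 45 d replicate 2. The 2 falls were prophenoloxidases, enzymes of melanisation. PPO1, a prophenoloxidase of crystal cells, had 41.4, 63.2 and 56.9 CPM at 45 d and 98.1, 88.1 and 116 CPM at 15 d (-0.92 ± 0.14, adjusted p 0.0017), and PPO2 fell by 0.66 ± 0.10. The hemocyte marker Hml did not pass the test (0.04 ± 0.08).

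No member of 2 stress lists was called in the fit of the 6 libraries by edgeR or by DESeq2. In other edgeR fits 1 heat shock gene was called higher with scaling by library size alone, without the filter on low counts or with the tim term described below, and 1 Turandot gene with the tim term. The 4 tested Turandot genes, stress peptides induced by JAK-STAT signalling, had log2 changes of 0.14 to 0.31, none with an unadjusted p under 0.05. The 10 tested heat shock genes had a median of 0.03, with 1 higher at an unadjusted p under 0.05, and Hsp83 had 806, 904 and 1207 CPM at 45 d against 1259, 686 and 710 CPM at 15 d, with overlapping ages. Markers of tissues that make immune peptides differed little in sum. The summed level of 7 fat body markers was 6209 to 6770 CPM at 45 d and 5702 to 6119 CPM at 15 d, with 1 of the 5 tested called higher and 1 lower. Most of this sum was apolpp, at 5864, 5599 and 6152 CPM at 45 d and 5371, 5114 and 5368 CPM at 15 d. The summed level of 8 hemocyte markers was 831 to 840 CPM at 45 d and 866 to 895 CPM at 15 d, with PPO1 and PPO2 called lower of the 7 tested. Neither sum overlapped between ages. The gut markers had a low sum that was higher at 45 d, at 90.7, 56.0 and 89.1 CPM against 29.7, 27.7 and 43.4 CPM at 15 d. Of the 6, 4 were tested, 2 were called higher and Jon25Bi was at 0 in all 6 libraries. Among 10 tested digestive enzymes 4 rose, the amylases Amy-p (1.28) and Amy-d (1.0) and the maltases Mal-A1 (1.1) and Mal-B2 (0.67), with 2 rises without 15 d replicate 2, 15 d replicate 3 or 45 d replicate 1. Their part in the immune changes was not tested.

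**Figure D2:**
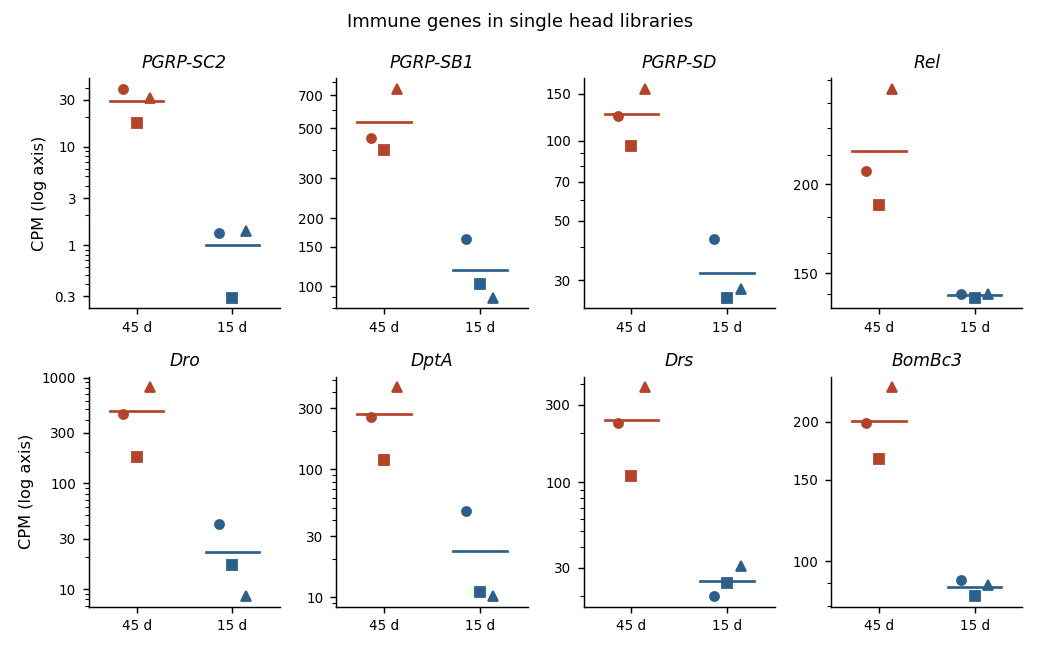
Level of 8 immune genes in single head libraries, in CPM on log axes, for 45 d (red, left) and 15 d (blue, right), with replicates 1, 2 and 3 as circle, square and triangle and the mean as a line. All 3 libraries at 45 d lie above all 3 at 15 d for each gene, and replicate 3 is the highest old library for all but PGRP-SC2.

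Outside the immune lists, and among genes with a symbol other than a CG or CR number and a mean log2 CPM of at least 3, the largest rise was that of Gnmt, glycine N-methyltransferase, which uses up the methyl donor S-adenosylmethionine. The gene lies on chromosome arm 3R at 12674608 to 12676084. It had 341, 300 and 612 CPM at 45 d and 77.3, 41.6 and 18.7 CPM at 15 d (3.19 ± 0.37, adjusted p 0.00033). The young libraries differed among themselves, and no overlap between ages was a condition for naming the gene among the largest rises. The adjusted p was at most 0.0059 when one library was left out and 0.056 with robust dispersion.

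Other metabolic and secreted genes changed more moderately. Ldh, lactate dehydrogenase, had 39.6, 33.0 and 31.6 CPM at 45 d and 16.8, 11.3 and 16.9 CPM at 15 d (1.20 ± 0.16, adjusted p 0.0007), and it was the only glycolytic gene called of 14. Tsf1, the iron carrier transferrin, had 6330, 5503 and 7850 CPM at 45 d and 4191, 3153 and 3818 CPM at 15 d (0.81 ± 0.13, adjusted p 0.0018). The fatty acid synthase gene FASN1 had 2786, 2879 and 3410 CPM at 45 d and 2233, 1466 and 1795 CPM at 15 d (0.72 ± 0.13, adjusted p 0.0047, not called with robust dispersion). In each of the 3 genes the ages did not overlap.

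Larval serum proteins, storage proteins of the fat body, moved in opposite directions. Lsp1beta, on arm 2L at 898500 to 901316, showed the largest fall of the named genes. It had 87.2, 107 and 108 CPM at 45 d and 313, 158 and 280 CPM at 15 d (-1.32 ± 0.20, adjusted p 0.0013, and 0.083 with robust dispersion). Lsp1alpha had 14.2, 12.8 and 21.4 CPM at 45 d and 4.47, 1.44 and 0.924 CPM at 15 d (2.80 ± 0.38, adjusted p 0.00088). The odorant-binding protein Obp56a had 31.6, 26.3 and 31.0 CPM at 45 d and 5.79, 5.49 and 7.85 CPM at 15 d (2.18 ± 0.17, adjusted p 2.6e-05). Among the 30 tested genes of that family 3 rose and 1, Obp44a, fell (-0.60 ± 0.09), with 2 falls without 15 d replicate 2 or 45 d replicate 3. Over all genes tested 4.94% rose and 4.33% fell.

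Of 66 cytochrome P450 genes 6 rose and 3 fell, and of 32 glutathione S-transferase genes 3 rose, against 4.94% higher and 4.33% lower of all genes. The 6 rises were 2 without 45 d replicate 2, 3 without 15 d replicate 2 or 3 and 9 without 45 d replicate 3, the 3 falls 0 or 1 in all fits that left out a library but those without 15 d replicate 2 (2) or 45 d replicate 3 (5), and the 3 transferases 0 without 15 d replicate 2 or 3 or 45 d replicate 1 or 2. Cyp4p2 had 92.4, 82.8 and 104.4 CPM at 45 d and 55.2, 56.0 and 60.7 CPM at 15 d (0.69 ± 0.09). Among 18 DNA damage genes 4 rose. Gadd45, a stress sensor, had 35.1, 27.4 and 29.8 CPM at 45 d and 13.4, 14.4 and 14.6 CPM at 15 d (1.12 ± 0.14, adjusted p 0.00041). Irbp, the Ku70 homologue of end joining, rose by 0.84 ± 0.16, and both were called with any one library left out. The calls of Xrp1 (0.38) and Ku80 (0.68) were lost without 15 d replicate 1, 15 d replicate 2 or 45 d replicate 2, that of Ku80 also without 15 d replicate 3 or 45 d replicate 1. p53 was not called (0.06 ± 0.23).

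Many genes of light detection fell. Of 29 phototransduction genes 16 fell and none rose, with a median log2 change of -0.40 against a median close to 0 over all genes tested. At the start of the cascade, ninaE, the major rhodopsin Rh1, had 14400, 18999 and 27679 CPM at 45 d and 36651, 34407 and 35148 CPM at 15 d (-0.80 ± 0.17, adjusted p 0.011). The old libraries were all below the young ones and differed widely from each other, with 45 d replicate 3 the highest. This call was lost without 45 d replicate 2 (adjusted p 0.054) and with robust dispersion. The other rhodopsins were not called, with log2 changes of 0.14 for Rh3, -0.09 for Rh4, -0.40 for Rh5 and -0.09 for Rh6. Rh3, found in inner photoreceptor cells, had 1300, 1374 and 1468 CPM at 45 d and 1286, 1191 and 1267 CPM at 15 d.

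Downstream of rhodopsin, Ggamma30A, the gamma subunit of the eye's G protein, had 2100, 2183 and 2655 CPM at 45 d and 3282, 3335 and 3320 CPM at 15 d (-0.52 ± 0.09, adjusted p 0.0028). The channel gene trpl had 2292, 2910 and 2285 CPM at 45 d and 3816, 3335 and 4034 CPM at 15 d (-0.58 ± 0.11, adjusted p 0.0045). Its partner trp was not called, at 1882, 2345 and 2232 CPM at 45 d and 2416, 2201 and 2381 CPM at 15 d, with overlapping ages. The phospholipase norpA fell by 0.32 ± 0.08, Galphaq by 0.34 ± 0.10 and Gbeta76C by 0.55 ± 0.13, each called in only 1 of the 6 fits that left out a library.

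Some genes that end the response or restore the resting state were among the 16 falls. Arr1, an arrestin, lies on arm 2L at 18078269 to 18081307. It had 4516, 5652 and 7036 CPM at 45 d and 10887, 10136 and 10596 CPM at 15 d (-0.88 ± 0.12, adjusted p 0.00096). Arr2, the other visual arrestin, had 6113, 7890 and 12092 CPM at 45 d and 15224, 14186 and 13656 CPM at 15 d (-0.73 ± 0.18, adjusted p 0.023). For both, 45 d replicate 3 was nearest to the young libraries without reaching them. Calx, the sodium and calcium exchanger, on arm 3R at 20978183 to 21015613, had 231, 240 and 271 CPM at 45 d and 360, 380 and 380 CPM at 15 d (-0.60 ± 0.08, adjusted p 0.00075). Cam, calmodulin, which acts in all cells, fell by 0.42 ± 0.07 with libraries at 2577 to 2612 CPM at 45 d and 3356 to 3600 CPM at 15 d. The lipid phosphatase laza fell by 1.0 ± 0.21.

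Arr1, Calx, Cam, trpl and Ggamma30A were called with any one library left out. The count of 16 fell to 6 without 15 d replicate 2 or 45 d replicate 2, to 10 without 15 d replicate 1, and rose to 18 without 45 d replicate 3, and it was 12 with DESeq2 and 10 with robust dispersion. laza was lost without 15 d replicate 2 or 45 d replicate 2 and with DESeq2 or robust dispersion. Arr2 was lost in 4 of the 6 fits, all but those without 45 d replicate 1 or 3, and with DESeq2 or robust dispersion. The members' median against the 15 d mean was -0.63 in 45 d replicate 1, -0.37 in replicate 2 and -0.20 in replicate 3.

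Some structural and pigment genes of the eye fell. Of 18 genes for chromophore, rhabdomere and lens 5 fell, with a median log2 change of -0.20. The lens protein gene retinin had 306, 385 and 498 CPM at 45 d and 640, 583 and 673 CPM at 15 d (-0.68 ± 0.14, adjusted p 0.0081, not called with robust dispersion). pinta, which binds the chromophore precursor, had 44.3, 47.4 and 65.9 CPM at 45 d and 76.5, 83.8 and 90.3 CPM at 15 d (-0.69 ± 0.13, adjusted p 0.0051). chp, chaoptin of the rhabdomere, had 1024, 1267 and 1132 CPM at 45 d and 1355, 1370 and 1452 CPM at 15 d, and its adjusted p of 0.0499 was lost in most other fits. The transcription factors eya (0.00), ey (-0.09) and so (-0.11) were not called. The count of 5 was 2 without 15 d replicate 1 or 2, 3 without 45 d replicate 1 or 2, and 9 without 45 d replicate 3.

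Of 18 eye pigment genes 2 fell (4 without 45 d replicate 3), pr (-0.42), which was lost without 15 d replicate 1, 15 d replicate 3 or 45 d replicate 1, and se. Over all genes tested 4.33% fell. se, sepia of the red drosopterin pathway, had 30.4, 35.3 and 46.0 CPM at 45 d and 82.1, 68.2 and 62.8 CPM at 15 d (-0.95 ± 0.14, adjusted p 0.0014). Several of the 12 named genes with the largest falls are also known from the eye. tadr, a transporter of the cationic amino acid type named for a rhabdomere defect, had 36.1, 43.0 and 47.3 CPM at 45 d and 79.7, 79.2 and 67.0 CPM at 15 d (-0.84 ± 0.11). Tsp42Ej, a tetraspanin that takes part in rhodopsin turnover, had 125, 144 and 218 CPM at 45 d and 294, 288 and 298 CPM at 15 d (-0.87 ± 0.15). lqf, the endocytic adaptor epsin, had 365, 385 and 529 CPM at 45 d and 801, 812 and 735 CPM at 15 d (-0.88 ± 0.12). M7BP, a partner of myosin VIIa, fell by 0.90 ± 0.18, and it and Tsp42Ej were not called with robust dispersion. No overlap between ages was a condition for the 12 named falls.

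The 10 photoreceptor markers are themselves members of the phototransduction and structural lists, so their level is no separate evidence. Their sum, largely ninaE and Arr2, was 27839, 36186 and 49529 CPM at 45 d against 61971, 58278 and 58871 CPM at 15 d, and 5 of the 10 were called lower. The part of a change in cell number or in photoreceptor RNA as a whole was not tested.

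**Figure D3:**
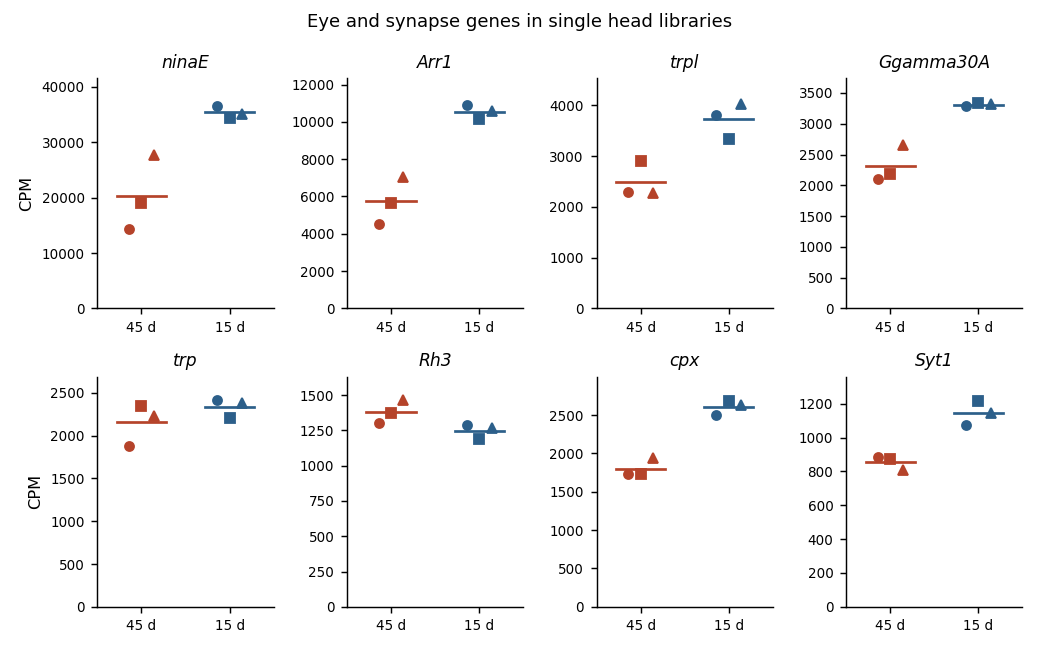
Level of 6 eye genes and 2 synapse genes in single head libraries, in CPM from 0, for 45 d (red, left) and 15 d (blue, right), with replicates 1, 2 and 3 as circle, square and triangle and the mean as a line. ninaE, Arr1, trpl, Ggamma30A, cpx and Syt1 do not overlap between ages, while trp does and the lowest 45 d library of Rh3 is close to the highest 15 d library.

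Genes of the synapse were lower by smaller and more even amounts. Of 29 genes of synaptic vesicle release 13 fell and none rose, and the median log2 change was -0.28. cpx, complexin, which clamps vesicle fusion, lies on arm 3R at 4280221 to 4304604. It had 1731, 1726 and 1936 CPM at 45 d and 2499, 2679 and 2631 CPM at 15 d (-0.54 ± 0.07, adjusted p 0.00078). Syt1, the calcium sensor synaptotagmin, had 882, 874 and 809 CPM at 45 d and 1075, 1215 and 1143 CPM at 15 d (-0.42 ± 0.08, adjusted p 0.0042). comt, the fusion ATPase NSF, had 262, 257 and 254 CPM at 45 d and 335, 362 and 369 CPM at 15 d (-0.47 ± 0.07, adjusted p 0.002). The old libraries were close together and all below the young ones.

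The vesicle proteins Syn (-0.39), nSyb (-0.39) and Csp (-0.37), the endocytic genes EndoA (-0.39) and shi (-0.37) and the fusion genes Snap25 (-0.38) and Rop (-0.28) fell as well. Genes of the active zone did not pass the test, among them brp (-0.30 ± 0.09, adjusted p 0.06), unc-13 (-0.08), Rbp (-0.09) and the calcium channel cac (-0.12). The count of 13 was 7 without 15 d replicate 2 and 8 without 15 d replicate 3, and cpx, comt, Syt1, Sap47, EndoA, Syn and Csp were called in all 6 fits that left out one library.

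Of 25 genes for making and moving transmitters 7 fell, with a median log2 change of -0.20, and histamine genes were among the largest of these falls. Hdc, the histidine decarboxylase that makes histamine, had 50.8, 51.4 and 73.7 CPM at 45 d and 94.7, 94.8 and 100 CPM at 15 d (-0.74 ± 0.12, adjusted p 0.0025). b, the decarboxylase that makes the beta-alanine used to inactivate histamine, had 84.5, 85.6 and 103 CPM at 45 d and 146, 161 and 174 CPM at 15 d (-0.83 ± 0.10, adjusted p 0.00031). e, ebony, which joins beta-alanine to histamine, fell by 0.35 ± 0.08 and was lost without 15 d replicate 2, 15 d replicate 3 or 45 d replicate 2. Gad1, which makes GABA, had 313, 342 and 280 CPM at 45 d and 409, 467 and 460 CPM at 15 d (-0.52 ± 0.09, adjusted p 0.0039). Genes of dopamine, serotonin and acetylcholine were not called, at 0.12 for ple, -0.13 for Trhn, 0.01 for Vmat and -0.20 for ChAT. The count of 7 was 3 without 45 d replicate 2 and 4 without 15 d replicate 2, without 15 d replicate 3 or with scaling by library size alone.

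Of 37 transmitter receptors 6 fell, with a median log2 change of -0.15. nAChRbeta1, a nicotinic receptor subunit, had 258, 267 and 214 CPM at 45 d and 320, 363 and 358 CPM at 15 d (-0.50 ± 0.10, adjusted p 0.0064), and nAChRalpha4 fell by 0.41 ± 0.08. These 2 were called with any one library left out. HisCl1, a histamine-gated chloride channel, had 11.7, 19.3 and 20.8 CPM at 45 d and 26.8, 26.6 and 28.2 CPM at 15 d, and its call (adjusted p 0.029) was lost in 4 of the 6 fits, all but those without 45 d replicate 2 or 3. The count of 6 was 2 without 15 d replicate 2 or 3, and 3 without 15 d replicate 1 or with scaling by library size alone.

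Of 23 voltage-gated and related channels 10 fell and none rose, with a median log2 change of -0.28. SK, a potassium channel opened by calcium, had 327, 305 and 309 CPM at 45 d and 419, 435 and 429 CPM at 15 d (-0.45 ± 0.07, adjusted p 0.002). qvr, a regulator of the Shaker channel known from sleep, had 609, 623 and 663 CPM at 45 d and 817, 897 and 848 CPM at 15 d (-0.44 ± 0.07, adjusted p 0.0026). Both, and the calcium channel subunit stj (-0.40), were called in all 6 fits that left out one library. The sodium channel para had 535, 426 and 383 CPM at 45 d and 568, 635 and 567 CPM at 15 d, with adjusted p 0.041, and it was lost without 15 d replicate 1, 2 or 3 or 45 d replicate 2. The count of 10 was 4 without 15 d replicate 2 or 3, 5 without 45 d replicate 2, 6 without 15 d replicate 1 and 5 with scaling by library size alone.

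Adhesion genes and neuropeptide precursors had a few calls. Fas1, the adhesion protein fasciclin 1, had 1211, 1220 and 1212 CPM at 45 d and 1719, 1827 and 1721 CPM at 15 d (-0.54 ± 0.07, adjusted p 0.00048), and 4 of 33 adhesion and axon genes fell (1 without 15 d replicate 2 or 45 d replicate 2, 2 without 15 d replicate 3). Of 29 neuropeptide precursors 2 rose and 1 fell, against 4.94% higher and 4.33% lower of all genes. There were 4 rises without 45 d replicate 3 and no fall without 15 d replicate 1, 2 or 3 or 45 d replicate 2. FMRFa had 22.7, 20.9 and 26.2 CPM at 45 d and 15.3, 14.2 and 12.01 CPM at 15 d (0.74 ± 0.15, adjusted p 0.0076), and Crz, corazonin, rose by 0.52 ± 0.09. The summed level of 10 neuronal markers was 4374 to 4667 CPM at 45 d and 5518 to 6073 CPM at 15 d, with 6 called lower, all of them members of the lists above, and elav, which marks neurons in general, was not called (-0.15 ± 0.08). That of 8 glial markers was 2946 to 3275 CPM at 45 d and 3073 to 3192 CPM at 15 d, with loco and wrapper called higher, both lost without 15 d replicate 2 or 45 d replicate 2. Their part in the falls was not tested.

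Of 10 activity-regulated genes 4 rose and none fell, with a median log2 change of 0.15. The 4 were 2 without 15 d replicate 1 or 3 or 45 d replicate 1, and Arc1 and Arc2 were called in every fit that left out a library. Arc1, which encodes a capsid-forming protein that carries RNA between cells, had 494, 473 and 368 CPM at 45 d and 179, 108 and 156 CPM at 15 d (1.58 ± 0.16, adjusted p 0.00015). Its neighbour and relative Arc2 had 20.2, 16.5 and 19.3 CPM at 45 d and 9.995, 9.53 and 6.93 CPM at 15 d (1.08 ± 0.18, adjusted p 0.0025). Without knowledge of how reads shared by such relatives were counted, the split between them is uncertain. The nuclear receptor gene Hr38 and sr, widely used as activity reporters, were not called (-0.42 ± 0.16 and 0.12 ± 0.12).

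**Figure D4:**
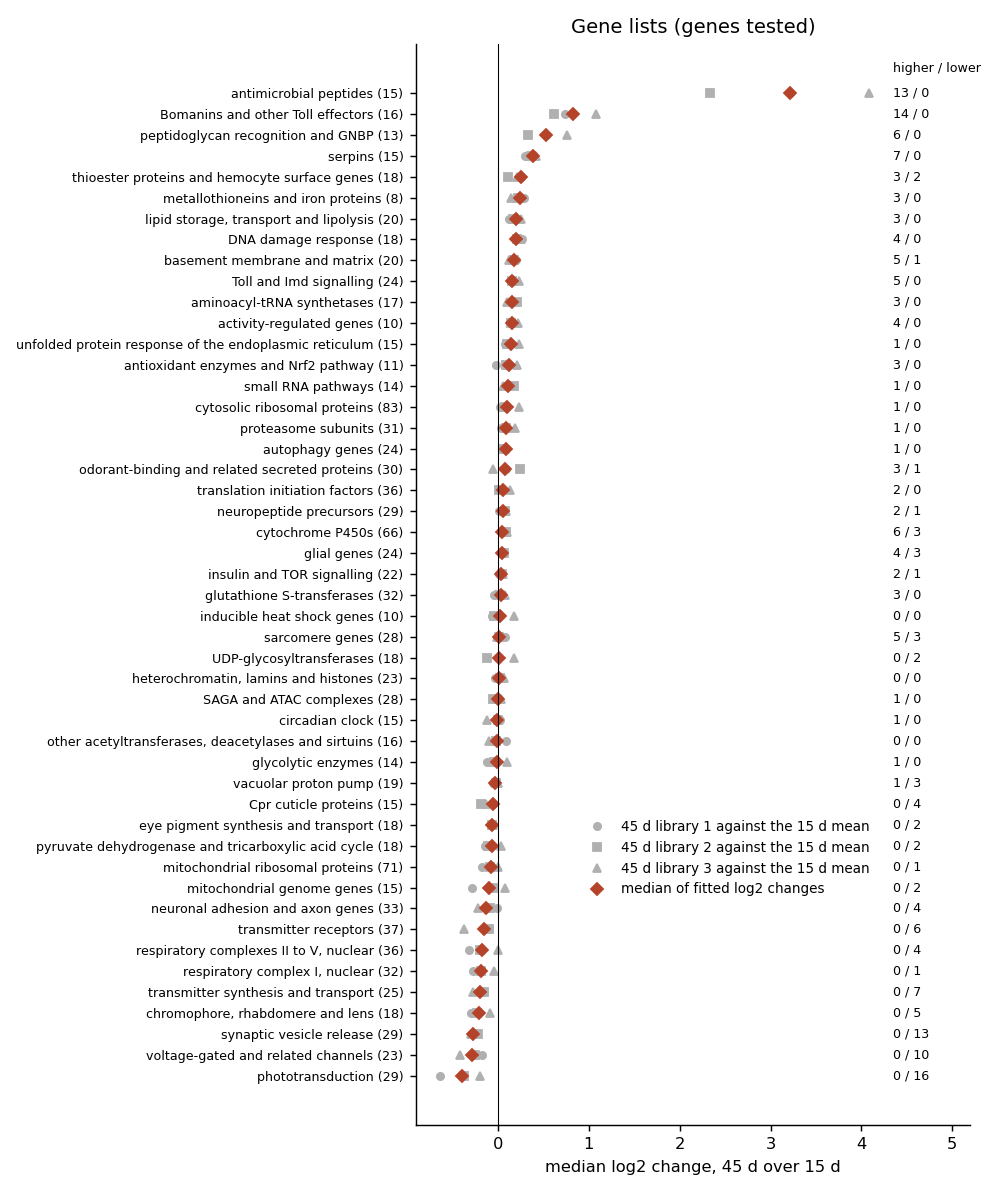
Median log2 change of 45 d over 15 d heads for lists with at least 8 genes tested (number in brackets), as the fitted median (red diamond) and as the median of each 45 d library against the 15 d mean (grey circle, square and triangle for replicates 1, 2 and 3), with the number of genes called higher and lower at the right. The vertical line marks the median of all genes tested. Not shown, though of that size, are the lists of digestive enzymes (median 0.84), fat body proteins (0.19) and chemosensory receptors (0.20). The long noncoding RNAs (-0.06) and the list of dosage compensation and yolk (0.03) are not shown either. Antimicrobial peptides reach 4.08 in replicate 3 and 2.33 in replicate 2.

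Genes of respiration lay slightly below 0 as a group, with few calls. Of 32 nuclear genes of complex I, 30 had a log2 change below 0, 1 fell (ND-ASHI, -0.30 ± 0.08) and the median was -0.19. Of 36 genes of complexes II to V 35 were below 0, 4 fell and the median was -0.17, among them COX8 with 95.7, 97.2 and 114 CPM at 45 d and 133, 130 and 137 CPM at 15 d (-0.39 ± 0.08, adjusted p 0.012). Their median stood at -0.32, -0.20 and 0.0035 in 45 d replicates 1, 2 and 3 for complexes II to V and at -0.27, -0.18 and -0.04 for complex I. Without 45 d replicate 3 the counts were 12 and 19. Without 15 d replicate 3 or 45 d replicate 1 or 2 they were 0 and 0, without 15 d replicate 1 0 and 1, and without 15 d replicate 2 1 and 1. ND-ASHI was lost in all of these but the fit without 45 d replicate 3, and COX8 in those without 15 d replicate 3, 45 d replicate 1 or 45 d replicate 2. RNAs of the mitochondrial genome, which carry short poly-A tails, had 2 falls among 15, with 4 without 45 d replicate 3 or with the replicate block and 5 without the filter on low counts. The ribosomal RNA mt:lrRNA had 26604, 25308 and 30220 CPM at 45 d and 40042, 39329 and 43928 CPM at 15 d (-0.59 ± 0.08, adjusted p 0.00094), and mt:srRNA had 67.0, 86.0 and 86.7 CPM at 45 d and 119, 112 and 131 CPM at 15 d (-0.60 ± 0.10, adjusted p 0.0034). How far such RNA is caught by poly-A selection can differ between libraries, and its part was not tested.

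Genes of protein turnover showed few calls, beside 4.94% higher and 4.33% lower of all genes. Of 83 cytosolic ribosomal protein genes 1 rose, RpS20 (0.31 ± 0.08, lost without 15 d replicate 2, 15 d replicate 3 or 45 d replicate 2), and 8 with scaling by library size alone, and 80 had a log2 change above 0 with a median of 0.10. Of 31 proteasome genes 1 rose, Rpn8 (0.27 ± 0.08, called only without 45 d replicate 3 among the fits that left out a library), and the median was 0.09. The vacuolar proton pump was split, with 1 of 19 genes higher (Vha68-2, lost without 15 d replicate 2 or 3 or 45 d replicate 2) and 3 lower. VhaM9.7-a had 47.6, 56.3 and 55.7 CPM at 45 d and 80.8, 76.9 and 89.6 CPM at 15 d (-0.64 ± 0.09, adjusted p 0.0013), VhaAC45RP fell by 0.47 ± 0.08 and Vha68-1 by 0.40 ± 0.08, each with any one library left out.

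Cuticle genes fell where they were called. Of 15 tested Cpr cuticle proteins 4 fell and none rose. Cpr49Ag had 8.97, 11.6 and 19.6 CPM at 45 d and 32.9, 26.3 and 30.5 CPM at 15 d (-1.20 ± 0.21, adjusted p 0.0037), Cpr49Ae fell by 0.72 ± 0.13 and Cpr76Bc by 0.69 ± 0.14. Cpr11B fell by 1.09 ± 0.23 and was lost without 15 d replicate 3. Matrix genes were split. Mmp1, a protease that cuts the extracellular matrix, had 155, 143 and 102 CPM at 45 d and 65.0, 58.4 and 67.4 CPM at 15 d (1.06 ± 0.13, adjusted p 0.00051). Loxl2, a lysyl oxidase that crosslinks matrix, had 8.72, 8.14 and 10.8 CPM at 45 d and 21.3, 19.4 and 20.6 CPM at 15 d (-1.16 ± 0.16, adjusted p 0.00073). The proteoglycan-like Ppn rose by 0.39 ± 0.07. In all, 5 of 20 matrix genes rose and 1 fell, and 2 rose in each of the fits without 15 d replicate 1, 2 or 3 or 45 d replicate 2, 3 without 45 d replicate 1 and 8 without 45 d replicate 3.

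Sarcomere genes had 5 rises and 3 falls among 28, and 3 rises without 15 d replicate 1 or 2 or 45 d replicate 2. Act57B, an actin of muscle, had 624, 657 and 768 CPM at 45 d and 377, 404 and 418 CPM at 15 d (0.77 ± 0.09, adjusted p 0.0003), and the Z disc genes Mlp60A and Mlp84B rose by 0.50 ± 0.09 and 0.48 ± 0.08. The calcium pump SERCA, which acts in many cells, fell by 0.45 ± 0.08 and Zasp66 by 0.43 ± 0.07. Mhc, the myosin heavy chain, was not called, at 730, 721 and 703 CPM at 45 d and 651, 712 and 792 CPM at 15 d.

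The noncoding RNAs of male dosage compensation fell in step. lncRNA:roX1, on the X chromosome at 3857230 to 3862697, had 1199, 1104 and 1239 CPM at 45 d and 1774, 1837 and 1780 CPM at 15 d (-0.61 ± 0.07, adjusted p 0.00031). lncRNA:roX2 had 31.4, 28.8 and 35.8 CPM at 45 d and 55.0, 58.4 and 54.0 CPM at 15 d (-0.81 ± 0.10, adjusted p 0.00044). msl-2, the protein component that is limiting in males, was not called (0.04, at 67.7 to 76.2 CPM at 45 d and 68.4 to 72.2 CPM at 15 d). The summed level of 6 ovary markers was 35.4 to 54.5 CPM at 45 d and 43.9 to 50.2 CPM at 15 d, with none called of the 3 tested. Among them the yolk protein gene Yp1 had 3.49, 5.12 and 3.01 CPM at 45 d and 2.37, 4.33 and 1.62 CPM at 15 d. Most of the sum was Yp3, and Cp36 was at 0 in all 6 libraries. The roX RNAs are made in males and the sex of the flies is not labelled. The parts of a change in the mix of sexes and of a change per male were not tested. Across 131 long noncoding RNAs tested 7 rose and 8 fell, shares close to the 4.94% and 4.33% of all genes, with 4 to 7 rises and 4 to 10 falls when one library was left out. The fewest rises came without 15 d replicate 2 or 45 d replicate 1 and the fewest falls without 15 d replicate 1 or 3 or 45 d replicate 1, while without 15 d replicate 2 there were 5 falls.

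Gcn5, the acetyltransferase that the study is about, lies on arm 3L at 12521129 to 12524014. It had 80.2, 80.2 and 69.2 CPM at 45 d and 56.0, 56.9 and 59.4 CPM at 15 d (0.41 ± 0.09, adjusted p 0.011). The ages did not overlap, and the call was lost without 45 d replicate 2 (adjusted p 0.063). Among 28 genes of the SAGA and ATAC complexes it was the only one called, with 3 called without 45 d replicate 3 and none without 45 d replicate 2, and their median log2 change was close to 0. None of 16 other acetyltransferase, deacetylase and sirtuin genes and none of 23 heterochromatin, lamin and histone genes was called by edgeR or DESeq2. At an unadjusted p under 0.05, 1 of the 16 was higher and 1 of the 23 lower. Without 45 d replicate 3 edgeR called 1 of the 16.

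Of 15 circadian clock genes 1 was called, against 9.27% of all genes, and several differed widely between libraries of 1 age. tim, whose protein closes the clock's feedback loop with that of per, had 655, 868 and 106 CPM at 45 d and 100, 151 and 285 CPM at 15 d (1.60 ± 0.54, adjusted p 0.088). per had 171, 204 and 31.9 CPM at 45 d and 25.0, 51.1 and 88.2 CPM at 15 d, and vri, which the same activators switch on, had 348, 445 and 66.2 CPM at 45 d and 44.5, 102 and 186 CPM at 15 d. These 3 genes were high in 45 d replicates 1 and 2 and as low in 45 d replicate 3 as in the young libraries, while Clk, which peaks at the opposite time of day, was lowest in 45 d replicates 1 and 2, with 40.1, 27.2 and 72.5 CPM at 45 d and 72.9, 73.4 and 56.6 CPM at 15 d. The repressor cwo was the single clock gene called (0.78 ± 0.18, adjusted p 0.016), and this was lost in all fits that left out one library but that without 45 d replicate 3. Without 45 d replicate 3, 5 clock genes were called higher and 4 lower. At 3, 15 and 30 d, tim, per and vri were each lowest in replicate 1 and highest in replicate 3, an order that 45 d did not share. tim had 341, 635 and 1070 CPM at 3 d and 276, 707 and 944 CPM at 30 d. The time of day of sampling and the meaning of replicate numbers are not given in the labels, and their part was not tested.

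Because tim differed within ages as well, a fit of all 12 head libraries with the level of tim as a term was added after the values had been seen. It called 379 genes higher and 255 lower at 45 d, against 464 and 362 in the same 12 libraries without that term, and 536 of the 822 calls of the 6 libraries were among them (727 without the term). All 13 antimicrobial peptides, all 14 Bomanins and related effectors, 13 genes of vesicle release, 13 of phototransduction, 6 of the channels and none of complexes II to V were called in the fit with tim. Among named genes, 28 lost their call in this fit, against 5 in the same 12 libraries without the term. Those lost only with the term included cwo, ninaC, pr, COX8 and Sesn, while Col4a1 and kdn were lost in both.

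**Figure D5:**
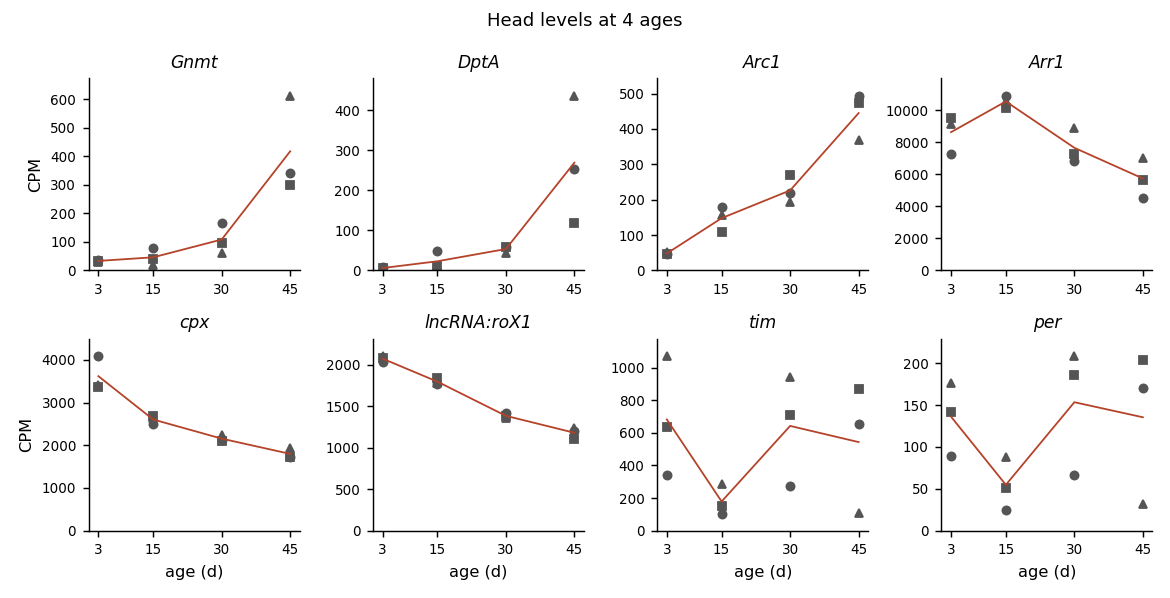
Level of 8 genes in the 12 head libraries at 3, 15, 30 and 45 d, in CPM from 0, with replicates 1, 2 and 3 as circle, square and triangle and the mean as a line. Gnmt, DptA and Arc1 are highest at 45 d, cpx and lncRNA:roX1 lowest, and Arr1 is highest at 15 d. tim and per spread widely within 3, 30 and 45 d and, at a lower mean level, within 15 d.

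The 30 d heads, which took no part in the comparison, mostly lay between the ages compared for the genes called. Their mean was between those of 15 d and 45 d for 404 of the 438 genes called higher and 336 of the 384 called lower. It was nearer to 45 d for 253 and 273 on a log2 scale of CPM plus 0.5. Genes called have a gap between 15 d and 45 d, which by itself makes a place in between more likely. No share over all genes tested is given beside these counts. DptA was at 57.7, 59.2 and 43.2 CPM and Gnmt at 165, 97.1 and 62.5 CPM at 30 d, both nearer to the 15 d level in CPM. cpx was at 2119, 2097 and 2249 CPM and lncRNA:roX1 at 1422, 1379 and 1354 CPM at 30 d, nearer to the 45 d level.

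Heads at 30 d against heads at 3 d share no library with the comparison. In them 1259 of 8774 genes were higher (14.3%) and 1410 lower (16.1%). Of the genes higher at 45 d than at 15 d 419 were also tested there, 389 had the same direction and 273 were called in it. Of the 384 lower genes 356 had the same direction and 293 were called. Among the 7898 genes called in neither direction at 45 d against 15 d the signs were the same for 67.2%. Across all 8701 genes tested in both, Pearson's r was 0.58, as a description across genes that are not independent. PGRP-SC2 (3.48), CecA1 (3.62), DptA (3.21), Gnmt (1.72) and Arc1 (2.24) rose at 30 d against 3 d, and cpx (-0.74), Syt1 (-0.84), Gad1 (-1.21) and lncRNA:roX1 (-0.58) fell. Drs (1.03, adjusted p 0.16) and Def (0.58) were not called there. Arr1 was not called either (-0.17, adjusted p 0.36), and pinta went the opposite way and rose (0.59). Act57B (-0.04) and Mlp60A (-0.09) were not called, and Mlp84B fell (-0.66).

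Muscles at 45 d and 15 d were compared with heads through the interaction of tissue and age. The muscle libraries held 8855 to 9896 CPM of 6 gut markers, so they are not muscle alone. In muscle 45 d replicate 3, 36.57% of reads were not unique, against 6.0% to 8.59% in the other 5 muscle libraries, and without it the interaction called 168 genes. Of 9363 genes, 237 (2.53%) changed differently in heads and in muscles between 15 d and 45 d, with 1.59% of all genes more positive in heads and 0.94% more negative, 40 of the head rises and 23 of the head falls among them. The count was 140, 143 and 152 without head 15 d replicate 1, 2 and 3, and 134 and 152 without head 45 d replicate 1 and 2. Of the rises 414 were tested in muscle, where 368 went the same way and 49.5% were called, in a comparison with 8.48% of its genes higher. Of the falls 339 were tested there, with 307 in the same direction and 44.8% called, against 8.75% lower. Antimicrobial peptides rose in muscle by similar amounts, among them Dro (4.73), Mtk (3.55) and DptA (3.53), and so did Gnmt (2.55), PGRP-SB1 (1.95) and Obp56a (1.89). cpx (-0.52), Syt1 (-0.51) and lncRNA:roX1 (-0.39) fell in muscle as well. Arc1, b and mt:lrRNA were among the named genes whose change differed.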

How the data were processed

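The heads were read by poly-A RNA sequencing with single-end reads of 100 nt, per the labels' protocols. The deposited files hold the authors' raw counts per FlyBase gene ID. Tools without roles or order are listed in the submitters' processing notes: STAR 2.7.6a, featureCounts 2.0.1, DESeq2 and Trim Galore 0.6.6, and the head files end in 5 tallies of unassigned reads, which were dropped. The share of reads without a feature was 3.78% to 4.35% in heads. No source used here gives the strand setting or annotation behind the head counts. Gene symbols matched for 17358 of 17494 IDs, and coordinates and exon lengths are from FlyBase r6.36, the annotation named in the headers of the whole-fly counts.

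The 6 libraries were fitted with edgeR 4.0.16 (limma 3.58.1, R 4.3.3) by the quasi-likelihood test, with TMM scaling, filterByExpr (count minimum 10, total 15) and Benjamini-Hochberg adjustment over the 8863 genes tested at 0.05. The standard error is the log2 change over the square root of F. The printed CPM were scaled over the 12 head libraries. The 30 d against 3 d heads and the interaction with muscles were fitted likewise. The fit was tested on simulated data, where 90% of 2-fold and 99% of 4-fold changes were recovered in the comparison of 45 d with 15 d and 9 unchanged genes were called. The counts were drawn gene by gene from the means and dispersions of the real genes, with 100 genes changed at each fold. They held no differences shared by many genes within a library, so they cannot show how the fit behaves under such differences.

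Alternatives were DESeq2 1.42.0, RLE factors, library size alone, no filter on low counts, all 12 head libraries, heads at 15, 30 and 45 d, a replicate block, robust dispersion and leaving out each library. A fit with the level of tim was added after the data had been seen. Whether replicate numbers pair the libraries is not stated, and the main fit did not pair them. The deviations of same-numbered libraries from the mean of their age correlated at -0.18, 0.081 and -0.22. Such deviations follow the largest differences within an age, so they cannot exclude a shared batch. Members and gene lists were chosen with earlier results of these data known. Named were Gcn5, the 12 largest rises and 12 largest falls among called genes with a mean log2 CPM of at least 3 and no overlap between ages, up to 3 members per list with the smallest p, and list members known for the list's function. Which of them are printed was decided after their values were seen. Promoter sequences were not analysed here.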

Additional observations from a re-analysis of the deposited data

Results flagged for a closer look

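For 14 of the named genes the change between 15 d and 45 d differed between heads and muscles by the interaction of tissue and age in edgeR (adjusted p under 0.05, head change minus muscle change on the log2 scale). The muscle libraries also held 8855 to 9896 CPM of gut markers, and the part of this in the differences was not tested.

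The differences of 4 genes passed with any one of the 12 libraries left out. b, the beta-alanine enzyme, differed by -0.80 ± 0.14 (adjusted p 0.0042), with a fall of 0.83 in heads and a log2 change of -0.04 in muscles. Sesn, sestrin, an inhibitor of TOR signalling, differed by 0.92 ± 0.12 (adjusted p 0.0005). On the scaling over both tissues it had 210, 192 and 158 CPM at 45 d and 148, 145 and 146 CPM at 15 d in heads, and 189, 196 and 203 CPM at 45 d and 290, 290 and 294 CPM at 15 d in muscles. The rise in heads by itself was lost in 5 of 6 fits that left out a head library, all but that without 45 d replicate 3. mt:srRNA differed by 1.26 ± 0.17 and mt:lrRNA by 0.85 ± 0.11, with larger falls in muscles (-1.89 and -1.46) than in heads (-0.60 and -0.59).

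Of the other 10, Arc1 differed by 1.46 and passed in 8 of the 12 fits that left out a library, with a rise of 1.58 in heads and 0.11 in muscles. Ugt36D1 differed by 0.76, lost only without head 45 d replicate 2, and Tret1-1, a trehalose transporter, by 0.49, lost without head 15 d replicate 1 or 2. Ldh (0.83) passed in 6 of the 12 fits, Rpn8 (-0.54) in 5, Amy-p (1.17) and pinta (-0.97) in 4, Mlp84B (0.43) in 3, and lqf (-0.61) and M7BP (-0.92) in 1.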

How the results depend on the processing

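At 45 d against 15 d, the 438 rises and 384 falls became 601 and 226 with scaling by library size alone, which moved the median of all genes to 0.057. With the level of tim as a term in all 12 head libraries, chosen after seeing the data, they were 379 and 255. DESeq2 gave 317 and 274, and RLE factors, no filter, robust dispersion and more head libraries stayed within 1.5 times. Leaving out one library gave 217 to 592 rises and 158 to 552 falls, the highest without 45 d replicate 3, and the cause was not tested. The interaction with muscles called 237 genes, 134 to 317 with one library left out, fewest without head 45 d replicate 1. Heads at 30 d against 3 d had 1259 rises and 1410 falls, 876 to 1204 and 1005 to 1391 with one library left out, and 1715 and 1053 with scaling by library size alone.

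Pairing of libraries by replicate number is not stated, and the main fit had none. With the replicate block there were 369 rises and 301 falls at 45 d against 15 d, 1388 and 1518 at 30 d against 3 d, and 232 interaction calls.

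Of 134 named genes, 64 kept their call under all alternatives, 81 in all 6 fits that left out a library, and none changed direction. With robust dispersion 23 lost their call, with the tim term 28, with DESeq2 18, with the block 19 and with scaling by library size alone 8. With 3332624 to 4361043 counts a library, genes under the filter were not tested, and 3 libraries per age limit what small changes can be called.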

Other observations

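Several clear changes belonged to genes not yet named, chosen here after their values were seen. lncRNA:CR31781, one of the 7 long noncoding RNAs that rose, had the smallest p of the comparison, with 284, 298 and 276 CPM at 45 d and 112, 105 and 111 CPM at 15 d (log2 change 1.38 ± 0.08, adjusted p 2.3e-06). In muscles it was not called (-0.17), and it was among the genes whose change differed between the tissues. Listericin, an antibacterial secreted peptide, had 298, 258 and 442 CPM at 45 d and 121, 108 and 110 CPM at 15 d (1.55). CG9759 had 309, 262 and 374 CPM at 45 d and 98.9, 91.6 and 95.8 CPM at 15 d (1.71), and Myo31DF, an unconventional myosin that sets left-right asymmetry, rose by 0.95. The ages did not overlap for any of these 4.

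The 3 falls of at least 4-fold were in genes with low counts. CG13305 had 0.997, 1.40 and 1.81 CPM at 45 d and 10.8, 10.4 and 6.93 CPM at 15 d (-2.73), Vajk1 had 0.997, 0.698 and 0.602 CPM at 45 d and 4.21, 4.91 and 5.54 CPM at 15 d (-2.62), and CG13022 fell by 2.18.

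Genes that fell had longer exons in all, with a median of 2950.5 bases, against 2011.5 bases for genes that rose and 2237.5 bases for all genes tested. By chromosome arm, the share of tested genes that rose was 7.47% on 2R, 5.27% on 2L, 5.06% on 3R, 3.36% on X, 3.26% on 3L and 1.18% on 4, against 4.94% of all genes. The share that fell was 4.40% on 2R, 4.13% on 2L, 3.73% on 3R, 4.46% on X, 4.81% on 3L and 7.06% on 4, against 4.33%.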
